A study of Homo sapiens with 2 samples.

Results

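The 10 genes described here are core pluripotency factors and markers of embryonic stem cells, namely POU5F1, SOX2, NANOG, PRDM14, DPPA2, DPPA4, L1TD1, UTF1, ZFP42 and USP44. They were chosen by gene symbol in a deposited expression table, where each symbol had its own row, and they are 10 of 25436 symbols in all. The samples were HuES53 and HuES64, 2 lines of diploid human embryonic stem cells kept undifferentiated at a passage number below 20. Both came from in vitro fertilized embryos and served as controls. Neither label names a genetic change or a treatment. Each line was measured once, by sequencing of polyadenylated RNA, so the spread between replicates is unknown and each difference describes 2 libraries, with no test.

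Pluripotent cells can form every tissue of the embryo proper, and a small set of transcription factors holds them in that state. OCT4, the protein of POU5F1, binds DNA together with SOX2 at paired sites, often in company with NANOG, and these proteins act on each other's genes and on their own. The other genes of the set encode a repressor that works with this core (PRDM14), chromatin proteins (DPPA2, DPPA4, UTF1), a zinc finger protein related to YY1 (ZFP42, also called REX1), an RNA-binding protein derived from a transposon (L1TD1) and an enzyme that removes ubiquitin (USP44). Most of them are switched off when stem cells differentiate, and for that reason they serve as markers of the undifferentiated state.

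Values are FPKM, a fragment count divided by transcript length and library depth, so levels of different genes can be compared per length. Steps fitted to low values of short olfactory receptor genes put 1 FPKM over 1 kb at about 18.1 fragments in HuES53 and 14.8 in HuES64, for an assumed fragment length of 200 bases. On that scale UTF1 stood for about 566 fragments in HuES53 and 454 in HuES64, and DPPA2 for about 780 and 287. These depths are fitted values and bear on counting error only. A difference is the log2(FPKM + 1) of HuES53 less that of HuES64, and the 13790 genes that averaged 1 FPKM or more served as background.

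The lowest value of the 10 genes in either line was 16.4 FPKM, a level that 19.1% of all symbols reached in both lines. POU5F1 stood far above the rest, at 1053 FPKM in HuES53 and 1381 FPKM in HuES64. It ranked 75th of 25436 symbols in HuES53 and 77th in HuES64. POU5F1 held 49.4% of the summed FPKM of the 10 genes in HuES53 and 62.0% in HuES64, the sums being 2132 and 2229 FPKM. DPPA4 came next in both lines, with 434 FPKM in HuES53 and 342 FPKM in HuES64. The remaining 8 genes lay between 32.6 and 151 FPKM in HuES53 and between 16.4 and 122 FPKM in HuES64.

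**Figure D1:**
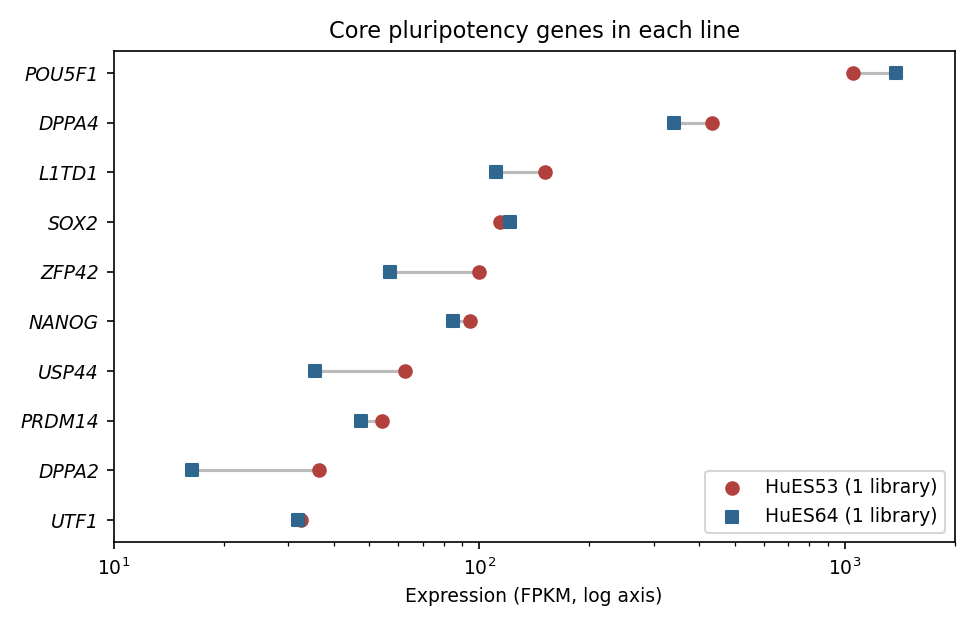
Expression of the 10 genes in FPKM on a log axis, with 1 circle for the HuES53 library and 1 square for the HuES64 library, ordered by the level in HuES53. POU5F1 and DPPA4 lead in both lines, and the widest gaps are those of DPPA2, USP44 and ZFP42.

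The order below DPPA4 differed between the lines only by exchanges of neighbours. In HuES53 it was L1TD1, SOX2, ZFP42, NANOG, USP44, PRDM14, DPPA2 and UTF1. In HuES64 each of these neighbouring pairs changed places, so that SOX2 came before L1TD1, NANOG before ZFP42, PRDM14 before USP44 and UTF1 before DPPA2. With 1 library per line, it cannot be said which neighbours differ beyond their spread.

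In 8 of the 10 genes the level was higher in HuES53, and in POU5F1 and SOX2 it was higher in HuES64. The median difference of the set was 0.26, against 0.03 over all 13790 genes, of which 52.5% were higher in HuES53. Only DPPA2 was at least 2-fold higher in HuES53, where 2.15% of all genes tested were. None of the 10 was at least 2-fold higher in HuES64, where 1.7% of all genes tested were. In either direction the share was 3.86%. Of these genes past 2-fold, 55.8% were the higher in HuES53, against 79.5% with TPM scaling. Among the 4633 genes that averaged 20 FPKM or more, as all 10 genes did, 0.842% were at least 2-fold higher in HuES53, 1.4% in HuES64 and 2.24% in either direction. Of these 4633 genes 39.6% were higher in HuES53, the median was -0.10, and the central 95% of differences ran from -0.85 to 0.70. DPPA2, USP44 and ZFP42 lay above those bounds, and the other 7 genes lay inside them. Over all 13790 genes the central 95% ran from -0.88 to 0.96, and only DPPA2 of the 10 lay outside it. The bound of 20 FPKM was chosen after the values were seen. In bulk RNA, a different number of cells of a type and a different amount of RNA per cell cannot be told apart.

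**Figure D2:**
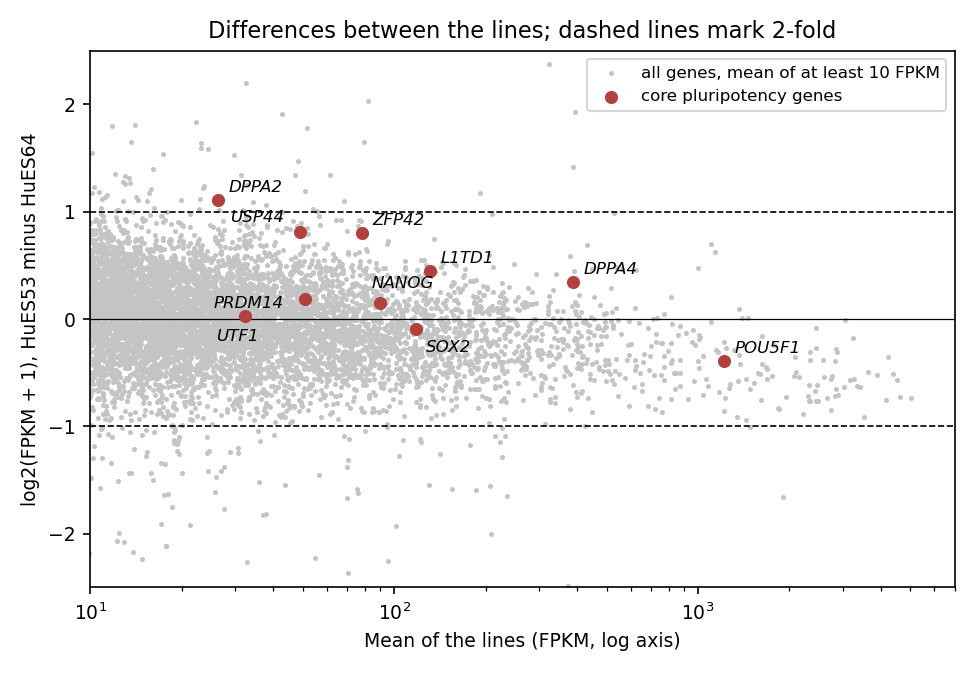
Difference between the lines on the log2(FPKM + 1) scale, HuES53 minus HuES64, against the mean FPKM on a log axis, for the 7191 genes averaging 10 FPKM or more, each library being 1 sample. Grey points are all genes, red points the 10 genes described here; 38 grey points lie beyond the axis limit of 2.5. DPPA2 is the 1 red point above the upper 2-fold line.

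POU5F1 (chromosome 6, 31132114 to 31138451 in the build of the table) encodes the POU-domain factor at the centre of the network. Its difference was -0.39, a ratio of 1.31 in HuES64 over HuES53. Most genes of such high expression lay on the same side: of 176 genes averaging 500 FPKM or more, a bound also set after seeing values, 9.66% were higher in HuES53, and their median difference was -0.46. The genes nearest to POU5F1 in level over both libraries were SNURF (1117 FPKM in HuES53 and 1347 FPKM in HuES64) and LDHB (1042 and 1290 FPKM).

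POU5F1 has near-identical copies elsewhere in the genome, and the table lists these at high values too. The coding sequence of POU5F1 in GENCODE release 29 has 1083 bases, and of its 50-base windows 72.1% occur unchanged in transcripts of 3 other genes, POU5F1B, POU5F1P3 and POU5F1P4. With 100-base windows the share was 32.6%. Over nearly the whole coding sequence, POU5F1P3 was 98.1% identical, POU5F1B 97.9% and POU5F1P4 97.2%. A stretch of 60 coding bases (bases 28 to 87 of the coding sequence, the earliest that aligned without a gap in both pseudogenes) shows how few bases tell them apart. Capitals mark bases that differ from POU5F1, 2 in each pseudogene.
POU5F1: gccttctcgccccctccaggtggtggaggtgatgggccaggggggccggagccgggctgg
POU5F1P3: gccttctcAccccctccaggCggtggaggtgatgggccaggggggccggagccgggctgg
POU5F1P4: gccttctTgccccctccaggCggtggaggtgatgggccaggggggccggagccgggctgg

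The copies followed POU5F1 closely. POU5F1P3 was listed at 439 FPKM in HuES53 and 571 FPKM in HuES64, POU5F1P4 at 225 and 297 FPKM, and POU5F1B at 196 and 274 FPKM. Relative to POU5F1 in the same library, POU5F1P3 stood at 41.7% in HuES53 and 41.4% in HuES64. POU5F1P4 stood at 21.3% and 21.5% of POU5F1, and POU5F1B at 18.6% and 19.8%. The ratio of HuES64 over HuES53 was 1.31 for POU5F1, 1.30 for POU5F1P3, 1.32 for POU5F1P4 and 1.40 for POU5F1B. How fragments from shared stretches were assigned is not given in the sources used here, so the levels of POU5F1 and of the copies are uncertain and cannot be separated in this table. Of 9 listed copies and overlapping or neighbouring genes 5 had a row. All 3 tested were higher in HuES64, while 52.5% of all genes tested were higher in HuES53. The median difference of the 3 was -0.40 (-0.43 to 0.08 over the settings tried). POU5F1 and its 3 copies were higher in HuES64 with TPM scaling as well. With the GC and length trend removed by the longest transcript, POU5F1P3 (0.10) and POU5F1P4 (0.08) changed sign.

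Among the 16 POU-domain genes POU5F1 was the highest in both lines. It held 83.3% of the family's summed FPKM in HuES53 and 82.8% in HuES64, or 98.6% and 99.0% without POU5F1B. POU2F1, the ubiquitous octamer factor OCT1, stood at 6.07 FPKM in HuES53 and 4.23 FPKM in HuES64, and POU6F1 at 2.05 and 3.23 FPKM. The 9 family members under 1 FPKM in both lines included the neural factors POU3F2, POU4F1 and POU4F2. No POU gene was 2-fold different, and the median difference of the 7 tested was 0.06, with both signs over the settings tried (-0.39 to 0.26).

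SOX2 (chromosome 3, 181429712 to 181432224), the HMG-box partner of OCT4, stood at 114 FPKM in HuES53 and 122 FPKM in HuES64. Its difference of -0.09 was smaller in size than that of 82.6% of all genes tested, and it turned positive, to 0.15, with TPM scaling. Per length, POU5F1 was 9.24 times as high as SOX2 in HuES53 and 11.4 times in HuES64. The locus of SOX2 overlaps that of the long non-coding gene SOX2-OT, which stood at 0.649 FPKM in HuES53 and 0.878 FPKM in HuES64. The strand setting is not given in the sources used here, so fragments of these overlapping genes cannot be told apart. The nearest genes in level were GOT2 (116 and 122 FPKM) and RNF167 (111 and 122 FPKM).

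SOX2 was also the highest of 19 SOX genes in both lines, with 35.6% of their summed FPKM in HuES53 and 39.2% in HuES64. It did not dominate its family as POU5F1 did. SOX4 followed at 94.8 FPKM in HuES53 and 71.5 FPKM in HuES64, and SOX15 at 26.9 and 33.3 FPKM. SOX17, a factor of the endoderm, stood at 6.89 and 10.6 FPKM, SOX21 at 7.49 and 5.24 FPKM, and SOX9 at 1.51 and 0.766 FPKM. SOX1, a neural relative of SOX2, stood at 0.0136 and 0.0520 FPKM. No SOX gene was 2-fold different; of the 12 tested, 6 were higher in each line, with a median difference of -0.01 (-0.04 to 0.30 over the settings tried).

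**Figure D3:**
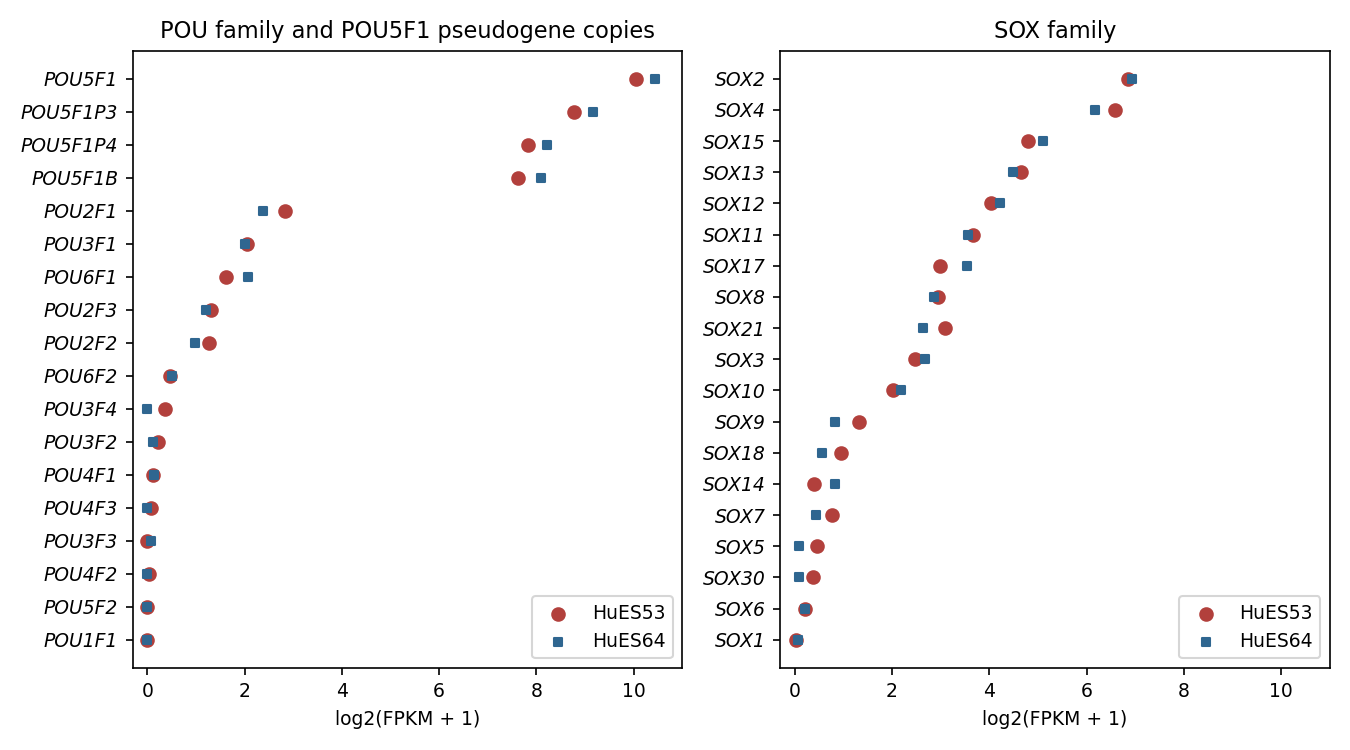
Levels of the POU-domain genes with the POU5F1 pseudogene copies (left panel) and of the SOX genes (right panel) as log2(FPKM + 1), circles for the HuES53 library and squares for the HuES64 library. POU5F1 and its 3 copies stand apart from all other POU genes, while SOX4 comes close to SOX2.

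NANOG (chromosome 12, 7941995 to 7948655), the homeodomain factor of the core, stood at 94.4 FPKM in HuES53 and 84.7 FPKM in HuES64. The difference was 0.15, or -0.07 after removal of the GC and length trend by the longest transcript. SOX2 was 1.21 times as high as NANOG in HuES53 and 1.44 times in HuES64, and POU5F1 11.2 and 16.3 times. Of the 50-base windows of the NANOG coding sequence, 79.6% occur in transcripts of other genes, most of them in NANOGP8 (71.6%) and NANOGP1 (47.3%). NANOGP8 and NANOGP1 had no row under these symbols, and the levels of the other copies were not analysed here. The value of NANOG is uncertain to that extent. The nearest genes in level were HNRNPA3 (93.5 and 87.1 FPKM) and NTS (96.1 and 86.9 FPKM).

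NANOG lies in a cluster with other genes of stem cells and germ cells. Within 100 kb, GDF3, a ligand of the TGF-beta family, stood at 24.8 FPKM in HuES53 and 14.5 FPKM in HuES64. DPPA3, a gene of oocytes and germ cells, stood at 3.13 and 1.41 FPKM, and the glucose transporter gene SLC2A14 at 23.3 and 11.8 FPKM. The differences of GDF3 (0.73), DPPA3 (0.78) and SLC2A14 (0.92) were all larger than that of NANOG, while NANOGNB was listed at 0 in both lines. These neighbours, and those of other genes given in the text, were picked after their values were seen.

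Promoter sequences were compared because OCT4 and SOX2 bind paired sites and because the levels of the 10 genes differ widely. RefSeq (GRCh38.p14) gave a promoter for 7 of the 10 genes in the tables used here. The 250 bases before each start were searched on both strands for several motifs. The octamer part is TTTGCAT. The core of a SOX site is ACAATG. The paired site is the octamer part followed by any 1 base and the SOX core. Also searched were the common promoter elements known as the CCAAT box, the TATA box and the GC box. The paired site was found in NANOG alone among the 7, from 120 to 107 bases before the start. Over all 35116 promoters of the same length it was found in 2, NANOG included. The octamer part was found in NANOG, within the paired site, and in SOX2, against 3.94% of all promoters. Of the 7 only NANOG, again within the paired site, held the SOX core, which 9.29% of all promoters held. The GC box, spelled GGGCGG, was found in 5 of the 7, with 4 matches in UTF1 that overlap in pairs, against 42.6% of all promoters. CCAAT was found in L1TD1, DPPA4 and SOX2 (32.0% of all) and the TATA box, spelled TATAAA, in none of the 7 (10.7% of all). Below are the promoters of NANOG and SOX2, for the octamer matches, of the neighbours DPPA4 and DPPA2, and of UTF1, for its GC boxes. Capitals mark the paired site in NANOG, the octamer part in SOX2 (on the other strand, so its reverse complement is printed), the CCAAT box and the GC box in DPPA4, and the GC boxes in UTF1. DPPA2 held no match to any of these motifs.
NANOG (chr12:7789152-7789401, + strand): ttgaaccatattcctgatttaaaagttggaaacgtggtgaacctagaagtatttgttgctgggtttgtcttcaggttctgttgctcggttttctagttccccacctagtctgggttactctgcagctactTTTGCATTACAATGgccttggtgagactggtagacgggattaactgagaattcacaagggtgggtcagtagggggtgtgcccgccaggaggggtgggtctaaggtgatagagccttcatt
SOX2 (chr3:181711675-181711924, + strand): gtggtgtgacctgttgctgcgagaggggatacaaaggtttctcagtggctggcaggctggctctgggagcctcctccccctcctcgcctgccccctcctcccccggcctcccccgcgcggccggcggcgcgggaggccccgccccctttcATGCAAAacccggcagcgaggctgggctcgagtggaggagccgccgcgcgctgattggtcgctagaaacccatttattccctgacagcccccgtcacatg
DPPA4 (chr3:109337547-109337796, - strand): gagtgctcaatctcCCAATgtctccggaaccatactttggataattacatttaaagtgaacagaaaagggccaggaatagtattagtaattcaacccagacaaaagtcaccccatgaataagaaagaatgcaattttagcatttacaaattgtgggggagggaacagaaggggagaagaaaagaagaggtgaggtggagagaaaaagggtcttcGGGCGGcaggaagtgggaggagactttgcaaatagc
DPPA2 (chr3:109316518-109316767, - strand): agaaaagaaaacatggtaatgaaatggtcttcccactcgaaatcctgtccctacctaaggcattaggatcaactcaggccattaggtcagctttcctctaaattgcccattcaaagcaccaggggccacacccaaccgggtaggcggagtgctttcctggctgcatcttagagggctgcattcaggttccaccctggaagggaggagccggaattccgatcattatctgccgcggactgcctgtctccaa
UTF1 (chr10:133229967-133230216, + strand): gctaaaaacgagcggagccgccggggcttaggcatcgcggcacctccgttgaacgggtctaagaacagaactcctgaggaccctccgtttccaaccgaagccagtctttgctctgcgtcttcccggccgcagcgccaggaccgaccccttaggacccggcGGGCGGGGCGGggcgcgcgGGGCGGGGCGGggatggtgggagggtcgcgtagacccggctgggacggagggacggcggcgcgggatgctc

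The G and C content of these 250 bases was 47.6% in NANOG, 68.8% in SOX2, 43.2% in DPPA4, 52.0% in DPPA2 and 70.8% in UTF1, against a median of 58.0% over all promoters. A motif match describes letters only, and no binding was measured in these libraries. Other spellings and sites farther from the start were not searched, so a gene without a match may still hold such sites.

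DPPA2 and DPPA4 are related neighbours on chromosome 3, at 109012635 to 109035364 and 109044988 to 109056419. Their proteins carry a SAP domain, bind each other and act on chromatin at developmental genes. DPPA4 stood at 434 FPKM in HuES53 and 342 FPKM in HuES64, and DPPA2 at 36.4 and 16.4 FPKM. DPPA4 was thus 11.9 times as high as DPPA2 in HuES53 and 20.9 times in HuES64, a ratio within each library that scaling the library as a whole does not change. The difference of DPPA2 was 1.11, a plain ratio of 2.22 and above that of 98.4% of all genes tested. The difference of DPPA4 was 0.34. After removal of the GC and length trend, DPPA2 lay just under 2-fold (0.95), and with the longest transcript it was 1.25. The gap between the loci is 9623 bases. The only other row within 100 kb, FLJ25363, stood at 0.0827 FPKM in HuES53 and 0.0506 FPKM in HuES64. The genes of similar name were low: DPPA5 stood at 4.60 and 3.03 FPKM and DPPA3 as given above.

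PRDM14 (chromosome 8, 70964021 to 70983562) encodes a zinc finger protein with a PR domain that works with Polycomb repressors and upholds POU5F1 expression in human stem cells. It stood at 54.2 FPKM in HuES53 and 47.6 FPKM in HuES64, a difference of 0.18. As deposited, its ratio to NANOG was 0.575 in HuES53 and 0.562 in HuES64. After removal of the GC and length trend the difference was 0.43 for PRDM14 and 0.03 for NANOG, or 0.37 and -0.07 by the longest transcript. Of 16 PRDM genes it was the highest in both lines, with 70.6% of their summed FPKM in HuES53 and 73.2% in HuES64. PRDM4 followed at 7.30 and 5.35 FPKM and PRDM2 at 5.30 and 4.01 FPKM. Another 9 PRDM genes were under 1 FPKM in both lines, and PRDM9, which marks sites of meiotic recombination, was listed at 0 in both. The median difference of the 7 tested was 0.32 (0.06 to 0.55 over the settings tried), and none was 2-fold different.

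ZFP42 (chromosome 4, 188916925 to 188926199) stood at 99.9 FPKM in HuES53 and 57.0 FPKM in HuES64. Its difference of 0.80 was above that of 95.7% of all genes tested and of 98.2% of those averaging 20 FPKM or more. After removal of the GC and length trend it was 0.50, or 0.72 by the longest transcript. The ratio of ZFP42 to NANOG was 1.06 in HuES53 and 0.673 in HuES64. YY1, the ubiquitous relative from which ZFP42 descends, stood at 45.3 FPKM in HuES53 and 36.5 FPKM in HuES64, and the other relative, YY2, at 0.315 and 0.334 FPKM. In the list of DPPA genes and YY1 relatives, which holds DPPA2, DPPA4 and ZFP42 themselves, all 6 tested were higher in HuES53. Of all genes tested 52.5% were. The median difference of the 6 was 0.63 (0.47 to 0.88 over the settings tried). TRIML2, the only other row within 100 kb, stood at 37.0 and 26.7 FPKM, a difference of 0.46 on the same side.

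UTF1 (chromosome 10, 135043778 to 135045062), a chromatin-associated factor, was the most even of the 10 genes, at 32.6 FPKM in HuES53 and 32.0 FPKM in HuES64. Its transcript is also by far the richest in G and C, at 76.8%, against 61.1% for PRDM14 and 54.4% or less for the other 8. Across all genes the difference was lower where this content was higher: the median was 0.30 in the tenth of genes lowest in it (38.7%) and -0.31 in the tenth highest (64.3%). With that trend and the trend of length removed, the difference of UTF1 was 0.41, or 0.55 by the longest transcript, against 0.03 as deposited. VENTX, a homeobox gene 6345 bases from UTF1, stood at 12.5 FPKM in HuES53 and 17.9 FPKM in HuES64.

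L1TD1 (chromosome 1, 62660474 to 62678000), an RNA-binding protein that partners with LIN28A, stood at 151 FPKM in HuES53 and 111 FPKM in HuES64. The difference of 0.44 shrank to 0.05 once the GC and length trend was taken out, and to 0.16 by the longest transcript. Its transcript has the lowest G and C content of the 10, at 40.5%, and a length of 3849 bases. LIN28A itself was level, at 430 FPKM in HuES53 and 448 FPKM in HuES64.

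USP44 (chromosome 12, 95910879 to 95945263) removes ubiquitin from histone H2B and restrains the anaphase-promoting complex through CDC20. It stood at 62.8 FPKM in HuES53 and 35.5 FPKM in HuES64, a difference of 0.81. That was above the difference of 95.8% of all genes tested and of 98.3% of genes averaging 20 FPKM or more. After removal of the GC and length trend it was 0.59, or 0.52 by the longest transcript. Only 1263 bases separate it from METAP2, a methionine aminopeptidase gene at 54.9 FPKM in HuES53 and 57.3 FPKM in HuES64. Among 30 ubiquitin-specific proteases USP44 ranked 5 in HuES53 and 6 in HuES64. USP22 (76.7 and 84.3 FPKM), USP10 (70.0 and 49.7 FPKM) and USP9X (66.9 and 61.2 FPKM) had the highest means. USP28 stood at 66.5 FPKM in HuES53 and 36.5 FPKM in HuES64, a difference of 0.85 like that of USP44, and USP3 at 3.17 and 6.15 FPKM. The median difference of the 27 proteases tested was 0.35, and over the settings tried it ran between 0.05 and 0.60. Of the 27, 21 were higher in HuES53, against 52.5% of all genes tested, and none was 2-fold different. CDC20 was level at 180 and 181 FPKM.

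**Figure D4:**
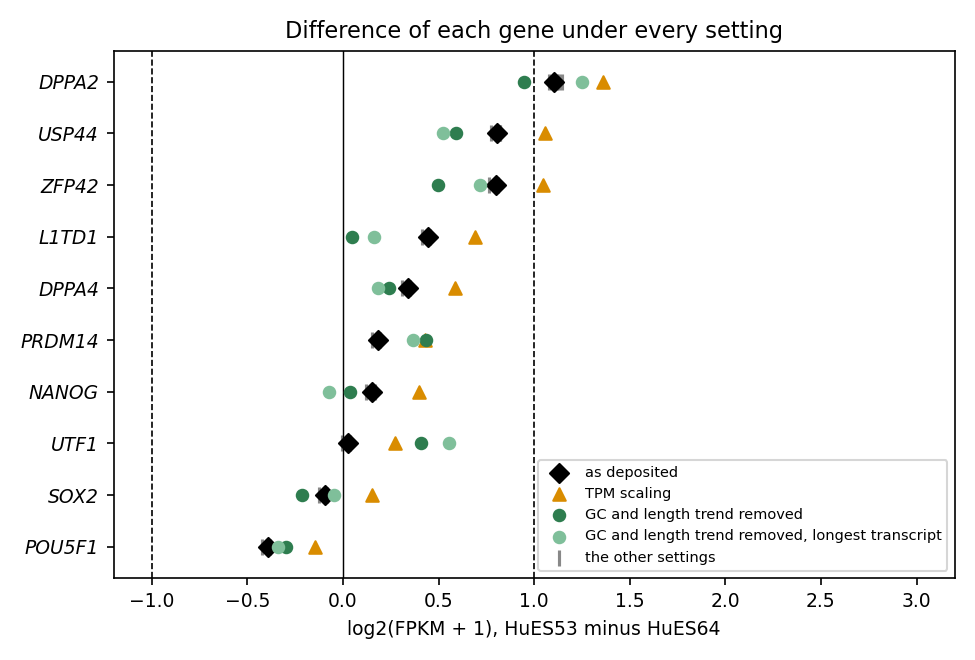
Difference of each of the 10 genes, HuES53 minus HuES64 on the log2(FPKM + 1) scale, as deposited (black diamonds), with TPM scaling (triangles), with the trend of GC content and transcript length removed (circles) and under the other settings (grey bars). Dashed lines mark 2-fold; DPPA2 stays near the upper line, and POU5F1 is negative throughout.

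The sign of the difference held under all 12 settings for POU5F1, PRDM14, DPPA2, DPPA4, L1TD1, ZFP42 and USP44. It changed for SOX2, NANOG and UTF1 in at least 1 setting, so the number of genes higher in HuES53 ran from 7 to 9. The filters and the choice of row cannot alter the values of these genes, and a pseudocount cannot turn a sign. Only the scalings and the trend removals could have changed one. TPM scaling put the median of all genes at 0.25, against 0.03 as deposited. There ZFP42 (1.05) and USP44 (1.06) joined DPPA2 (1.36) past 2-fold.

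The wider network of partners and targets of these factors was expressed as well. All 36 listed genes averaged 1 FPKM or more, with a median level of 59.9 FPKM in HuES53 and 59.3 FPKM in HuES64. Of the 36, 23 were higher in HuES53, against 52.5% of all genes tested. The median difference of the 36 was 0.39, or 0.63 with TPM scaling. At least 2-fold higher in HuES53 were 4, against 2.15% of all genes tested. None was 2-fold higher in HuES64, against 1.7% of all genes tested. LEFTY2, a feedback inhibitor of Nodal signalling, stood at 623 FPKM in HuES53 and 163 FPKM in HuES64, and the ligand NODAL itself at 47.2 and 21.5 FPKM. FGF4, a target of OCT4 and SOX2 in the mouse, stood at 2.73 and 0.514 FPKM, and NR6A1, a nuclear receptor that represses POU5F1 on differentiation, at 5.08 and 2.01 FPKM. ESRG, a primate long non-coding gene of stem cells, stood at 706 and 355 FPKM, just under 2-fold. The highest means were those of GAL (807 and 835 FPKM), TDGF1, a Nodal co-receptor gene (723 and 528 FPKM), and ESRG.

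Cofactors and chromatin partners differed less. All 26 were tested, and 19 were higher in HuES53, against 52.5% of all genes tested. The median difference of the 26 was 0.18 (0.11 to 0.40 over the settings tried). ZNF281, a zinc finger partner of the core factors, alone was past 2-fold (22.1 FPKM in HuES53 and 10.2 FPKM in HuES64). SALL4, which binds OCT4 and NANOG, stood at 42.1 and 24.9 FPKM, and the acetyltransferase gene EP300 at 19.8 and 12.4 FPKM. LIN28A, CDC20 and PARP1 (178 and 146 FPKM) had the highest means.

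Markers of differentiated lineages were set beside the 10 genes as a check of the label. In neuroectoderm 9 of 12 genes were under 1 FPKM in both lines, with a median of 0.190 FPKM in HuES53 and 0.264 FPKM in HuES64. The exceptions were TUBB3 (264 and 285 FPKM), NES (66.3 and 71.0 FPKM) and PAX6 (1.19 and 0.720 FPKM), and SOX1 was near 0. The 2 tested were higher in HuES64, with a median difference of -0.10. The trophoblast list had 8 of 12 under 1 FPKM and medians of 0.332 and 0.243 FPKM, led by KRT7 (6.19 and 5.35 FPKM). Of the 4 tested 3 were higher in HuES53, with a median difference of 0.18 (0.01 to 0.41 over the settings tried). CGA, a hormone subunit gene, was at 2.90 FPKM in HuES53 but listed at 0 in HuES64, GATA3 stood at 2.30 and 1.93 FPKM, and HAND1 at 1.39 and 2.21 FPKM. The germ cell list had 8 of 12 under 1 FPKM and medians of 0.283 and 0.0220 FPKM, with DAZL at 1.89 and 3.86 FPKM and PRDM1 at 1.05 and 1.09 FPKM. PIWIL2, which acts in the silencing of transposons, stood at 1.51 and 0.0189 FPKM. Of the 3 tested 2 were higher in HuES64, with a median difference of -0.03 that took both signs over the settings tried (-0.26 to 0.59). Beside the counts of these 3 lists, 52.5% of all genes tested were higher in HuES53.

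The endoderm and mesoderm lists had higher medians than these, although the neuroectoderm list summed to 334 FPKM in HuES53 and 358 FPKM in HuES64, mostly from TUBB3. The 12 endoderm genes had a median of 7.53 FPKM in HuES53 and 5.14 FPKM in HuES64 and summed to 676 and 176 FPKM. Of the 11 tested, 10 were higher in HuES53, 4 of them at least 2-fold, and the median difference was 0.51. Over all genes tested, 52.5% were higher in HuES53, and 2.15% were at least 2-fold higher. CER1, which encodes a secreted Nodal antagonist, was at 543 FPKM in HuES53 and 104 FPKM in HuES64, CXCR4 at 68.1 and 26.3 FPKM, HHEX at 7.81 and 3.14 FPKM and AFP at 7.25 and 1.53 FPKM. FOXA2, a pioneer factor of endoderm, differed less, at 11.9 and 9.26 FPKM. ALB, a gene of mature liver, had 0.0261 FPKM in HuES53, being listed at 0 in HuES64. The 12 mesoderm genes had medians of 1.77 and 1.43 FPKM and summed to 51.4 and 34.5 FPKM. Of the 7 tested 5 were higher in HuES53, against 52.5% of all genes tested. Their median difference was 0.56 (0.22 to 0.82 over the settings tried). MIXL1 alone was past 2-fold (6.84 and 2.52 FPKM), against 2.15% of all genes tested in that direction. KDR stood at 27.6 and 17.6 FPKM and EOMES at 7.26 and 4.41 FPKM. TBX6 (2.37 and 3.99 FPKM) and HAND1 (1.39 and 2.21 FPKM) were higher in HuES64. DPPA2, USP44 and ZFP42 were thus higher in the same library as most of these genes. The part of other cell types in the differences of DPPA2, USP44 and ZFP42 was not tested.

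Of the 14 fibroblast and feeder genes, 11 were tested and 8 of these were higher in HuES64. Higher in HuES53 were 52.5% of all genes tested, and 39.6% of those averaging 20 FPKM or more. The median difference of the 11 was -0.33 (-0.36 to -0.08 over the settings tried, nearest to 0 with TPM scaling). The list summed to 1734 FPKM in HuES53 and 1554 FPKM in HuES64, led by VIM (588 and 736 FPKM), FN1 (566 and 211 FPKM) and THY1 (243 and 227 FPKM). FN1 was past 2-fold higher in HuES53, where 2.15% of all genes tested were. COL3A1 (3.08 and 8.00 FPKM) was past 2-fold higher in HuES64, where 1.7% were, while S100A4 stood at 14.8 and 26.0 FPKM. COL1A1 stood at 138 and 168 FPKM, FBLN1 at 109 and 121 FPKM, COL1A2 at 66.5 and 46.7 FPKM, LUM at 2.26 and 3.47 FPKM, PDGFRB at 2.03 and 2.96 FPKM and COL6A3 at 1.49 and 3.02 FPKM. The 3 genes of the list under 1 FPKM in both lines were DCN, POSTN and FAP. DCN stood at 0.199 and 0.438 FPKM, POSTN at 0.601 and 0.477 FPKM, and FAP was listed at 0 in HuES53 and stood at 0.178 FPKM in HuES64.

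**Figure D5:**
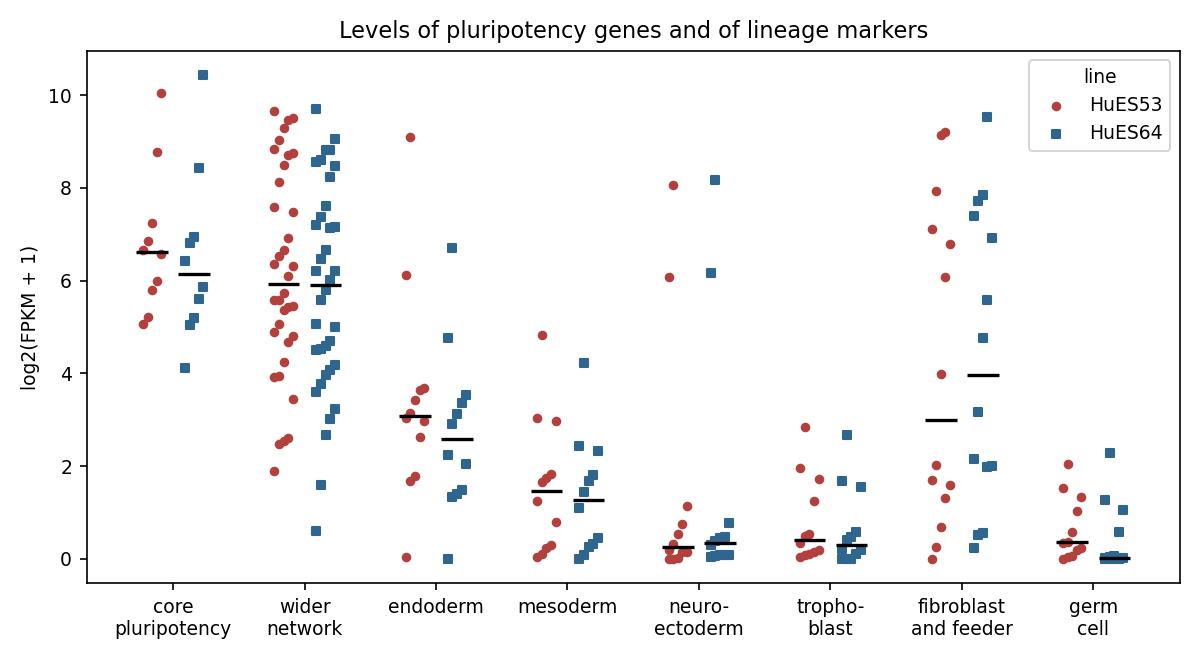
Levels of the 10 genes, the wider network and 6 lists of lineage markers as log2(FPKM + 1), circles for HuES53 and squares for HuES64, with 1 point per gene and a black bar at the median. Core pluripotency genes have the highest median in both lines, and neuroectoderm, trophoblast and germ cell lists the lowest.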

How the data were processed

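RNA sequencing of 2 samples, 1 library for each of the lines HuES53 and HuES64, was analysed. Polyadenylated RNA was prepared with an Illumina TruSeq kit, per the labels' protocols. The authors deposited 1 table of FPKM values; per the submitters' processing notes, TopHat2 2.0.4 and Cufflinks 2.0.2 were used, with no role stated. The sources used here do not give the genome build, annotation, strand setting or read filters. Loci count from 0 (1263 of 1298 microRNA rows then had the reference length) and are printed counting from 1.

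Chromosome Y (136 rows) was left out, and rows sharing a symbol (21 symbols) were summed. FPKM is not a count, so a count model was not applied, and with 1 library per line no test of any kind was possible. Differences used a pseudocount of 1 FPKM, which understates folds of low genes. Low values of olfactory receptor genes (loci under 1100 bases, under 6 fragments) came within 3% of whole fragments in 17 of 20 cases for HuES53 and 9 of 11 for HuES64, at a step chosen to maximise that share. GC content and length came from GENCODE release 29 transcripts, matched by symbol for 86.4% of the genes tested. Their trend was removed by subtracting medians over 20 bins of each in 5 rounds. The calculation was tested on simulated data with changed genes and a trend of GC content, but no trend of length.

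The genes and lists were chosen with earlier results of these data known. From each of the 15 lists the text names the 3 genes highest by mean and the 3 that differed most among those averaging 1 FPKM or more. It also names any 2-fold different, besides defining markers near 0 picked by function. DPPA5 and PIWIL2 are named outside these rules. It also names the 2 genes nearest in level to each of POU5F1, SOX2 and NANOG, and genes overlapping a locus. Further genes of the endoderm, mesoderm and fibroblast lists are named to show both directions. Analyses used Python 3.11.15 with pandas 2.3.3, numpy 2.4.6 and Biopython 1.88. The alternatives were pseudocounts of 0.1 and 0.5 FPKM, no filter, means of at least 5 or 20 FPKM, 3 scalings, the highest row of a repeated symbol, the trend removal, and detection at 0.1 or 5 FPKM. The bound of 20 FPKM and the longest-transcript version of the trend removal were added after seeing the data. Of the genes that the naming rule selects, 1 is not reported here.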

Additional observations from a re-analysis of the deposited data

How the results depend on the processing

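Only DPPA2 was past 2-fold among the 10 genes in 9 of the 11 alternatives. With TPM scaling 3 genes were, and after removal of the GC and length trend 0 were. The filters and the choice of row could not change this count, because all 10 genes averaged 20 FPKM or more and had a row each. The median difference of the 10 genes was 0.51 with TPM scaling and between 0.23 and 0.32 in the others, and all 10 were detected at 0.1 and at 5 FPKM. Over all genes, 297 were 2-fold higher in HuES53 and 235 in HuES64, a share of 55.8% for HuES53. With TPM scaling 774 were higher in HuES53, a share of 79.5%. With a pseudocount of 0.1 FPKM the counts were 585 and 405. Among the fewer genes averaging 5 FPKM or more 161 were higher in HuES53, and at 20 FPKM 39 were higher in HuES53 and 65 in HuES64. With the trend removed 141 were higher in HuES64, or 117 by the longest transcript. TPM scaling divides each library by its FPKM sum, 601128 in HuES53 and 713421 in HuES64. It thus multiplies the ratio of HuES53 over HuES64 by the same factor in every gene. Why these sums differ, and the cause of the shifts with trend removal, were not tested. No paired analysis was possible because each line has a single library. Leaving out a library leaves no comparison. Near-identical copies of POU5F1 and NANOG limit those levels, and depth is known only from the fitted steps.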
